A study of Gallus gallus with 25 samples.

Results

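Chromosome 1 is the longest chromosome of the chicken, and its contact domains were compared here in 4 pooled single-nucleus Hi-C maps of growing oocytes. Its members are all domains that the automatic lists place on chromosome 1, which gave 263 domains in lampbrush chromosome (LBC) type 1, 313 in LBC type 2, 215 in post-LBC type 1 and 266 in post-LBC type 2. These are 1057 of the 5602 domains on 28 chromosomes, and they take up between 19.5% and 19.6% of the summed domain length of each map. The oocytes came from the ovary of healthy wild-type hens, with a diameter of 1 to 2 mm for the LBC stage and 4 to 7 mm for the post-LBC stage, and single nuclei were isolated from them. The type was assigned to each nucleus by the authors after quality control, by its share of contacts between different chromosomes. What the types are is not settled. For LBC type 2 the study names an admixed somatic cell, which it holds unlikely, or an earlier, pre-lampbrush stage, which it holds more plausible. Post-LBC type 2 it takes as likely a later stage than post-LBC type 1. It also reports that LBC type 2 boundaries cluster much like those of chicken fibroblasts. These lists cannot tell the possibilities apart, so the comparison of LBC with post-LBC in type 2 may not be the same step as in type 1. The pooled maps rest on 14 nuclei for LBC type 1, 6 for LBC type 2 and 4 for post-LBC type 1, whereas post-LBC type 2 is 1 nucleus. A pooled map has 1 domain list and no replicate, so no difference between maps was tested, and the SD and intervals given below cover only the spread between domains or the counting of boundaries.

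In the lampbrush state, paired homologous chromosomes of the growing oocyte extend to great length during a prolonged diplotene, with chromatin arranged as a row of compact chromomeres with pairs of transcribed lateral loops. As the oocyte grows further, the loops retract, transcription falls and the chromosomes shorten, which is the post-LBC stage. In a Hi-C map, which counts ligation products between loci that lay close together in the nucleus, a contact domain is a stretch whose loci contact each other more often than they contact loci outside, and its 2 ends are its boundaries. The lists give only where domains start and end. A stretch that lies between neighbouring domains and belongs to neither is called a gap.

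The first domain began at position 672001 in 3 maps and at 688001 in LBC type 1, and the last one ended at 199616000 in all 4 maps (ASM2420605v2, counted from 1). All coordinates of the 4 automatic lists lie on a grid of 16 kb, which is the finest step by which their lengths and boundaries can differ. These lists hold only domains longer than 200 kb, and the shortest one on chromosome 1 was 208 kb.

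In the automatic lists, domains of chromosome 1 were shortest in LBC type 2 and longest in post-LBC type 1. The manually refined list that exists for LBC type 1 alone has fewer and longer domains, 132 with a median of 1075 kb, and with it LBC type 1 had the highest median. The median length was 704 kb in LBC type 1 (quartiles 480 and 944 kb) and 592 kb in LBC type 2 (480 and 736 kb). After the lampbrush stage it was 928 kb in type 1 (640 and 1152 kb) and 672 kb in type 2 (480 and 940 kb). The means with their SD over domains were 733 ± 319, 617 ± 193, 898 ± 323 and 715 ± 306 kb in the same order. Both LBC maps began their middle range at the same lower quartile, and they differed in the longer domains. Of the LBC type 1 domains 51 were over 1 Mb and 73 were under 500 kb, whereas LBC type 2 had 13 and 95. Post-LBC type 1 had 86 domains over 1 Mb and 29 under 500 kb, and post-LBC type 2 had 55 and 76. The distribution of post-LBC type 2 therefore lay close to that of LBC type 1, with 20.7% and 19.4% of domains over 1 Mb.

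**Figure D1:**
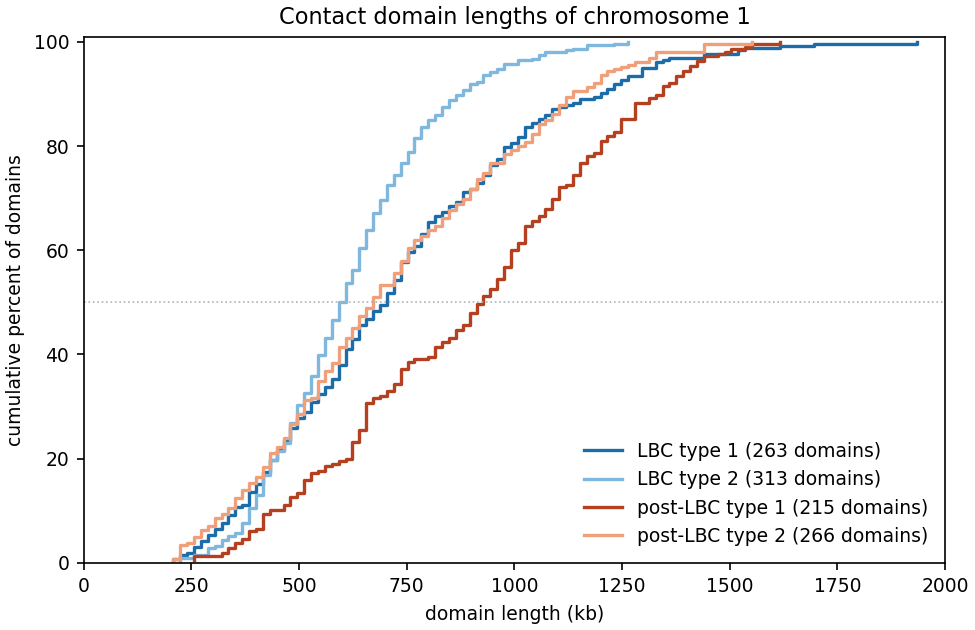
Cumulative percent of the domains of chromosome 1 (y axis) up to a given length in kb (x axis) in the 4 maps, 1 line per map, with the dotted line at 50%. The LBC type 2 line reaches 50% first and ends at 1264 kb, the post-LBC type 1 line lies to the right of the others over most of its range, and the lines of LBC type 1 and post-LBC type 2 run close together.

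Against the other chromosomes, the standing of chromosome 1 depended on the map. Its mean domain length ranked 2nd among 28 chromosomes in LBC type 1, 15th in LBC type 2, 6th in post-LBC type 1 and 19th in post-LBC type 2. In LBC type 1 the mean over all other chromosomes was 617 kb, below the 733 kb of chromosome 1, and in LBC type 2 it was 627 kb, above its 617 kb. The ratio of the type 2 to the type 1 mean at the LBC stage was 0.842 on chromosome 1, and it was between 0.876 and 1.35 on the other 27 chromosomes, so that all of these lay above it. By medians the ratio was 0.841, and the Z chromosome was lower with 0.817. The nearest large chromosome by number, chromosome 2, had a ratio of 0.894, and chromosome 3 had 1.03. Chromosome 1 was also divided into more domains in type 2, with a ratio of domain numbers of 1.19 against 0.75 to 1.14 elsewhere. At the post-LBC stage the ratio of means was 0.796, close to the 0.796, 0.812, 0.742 and 0.810 of chromosomes 2 to 5.

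The question of the stage comparison is how domains change when lampbrush chromosomes contract. The ratio of the post-LBC to the LBC mean domain length of chromosome 1 was 1.23 in type 1 and 1.16 in type 2, and that of the medians was 1.32 and 1.14. With the manually refined list of LBC type 1 the direction in type 1 turned, with a ratio of medians of 0.863, which sets a manual list against an automatic one. By the automatic lists, the type 1 ratio of means, 1.23, was below the median of the other chromosomes, 1.42. Their ratios of means lay between 1.11 and 1.68, and 23 of the 27 were above chromosome 1. In type 2 the other chromosomes lay between 0.979 and 1.49 with a median of 1.21, and 18 were above it. The number of post-LBC domains on chromosome 1 was 0.817 of the LBC number in type 1 and 0.850 in type 2. Domain calling carries a parameter that sets domain size and that the methods scale by chromosome size. Its part in these ratios was not tested.

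The extremes of length were not the same stretches in the 4 maps. In LBC type 1 the longest domain was chr1:193056001-194992000 with 1936 kb, followed by chr1:12256001-13952000 with 1696 kb and chr1:128880001-130496000 with 1616 kb. Each of the other maps placed boundaries inside the longest one, more than 80 kb from its ends. LBC type 2 had boundaries at 193152000 and 193968000 there, post-LBC type 1 at 193152000 and 193984000, and post-LBC type 2 at 193456000 and 193968000. A boundary at 193968000 or 1 grid step beyond it was thus present in 3 maps, while the nearest LBC type 1 boundary was between 912 and 928 kb away, the farthest of any boundary from another map's nearest one on chromosome 1. In LBC type 2 the longest domain was the 1264 kb of chr1:193968001-195232000, which starts at this same boundary and ends at a gap. LBC type 2 also had chr1:158896001-160128000 with 1232 kb and chr1:26944001-28112000 with 1168 kb, a length that a further domain of that map reached.

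The longest post-LBC domains of chromosome 1 covered stretches that other maps divided. In post-LBC type 1 they were chr1:24544001-26160000 with 1616 kb, chr1:143760001-145312000 with 1552 kb and chr1:6432001-7968000 with 1536 kb. Inside the first of these LBC type 1 had boundaries at 24912000 and 26000000, LBC type 2 at 24704000, 25472000 and 25984000, and post-LBC type 2 at 24704000 and 25984000. The third held no boundary of LBC type 1 more than 80 kb from its ends. In post-LBC type 2 the longest were chr1:181680001-183232000 with 1552 kb and, at 1440 kb each, chr1:57872001-59312000 and chr1:157504001-158944000, with 2 further domains of that length. At the other end, the shortest domains were 208 kb at chr1:21776001-21984000 and chr1:39648001-39856000 in LBC type 1, 224 kb at chr1:3600001-3824000, chr1:58848001-59072000 and chr1:181024001-181248000 in LBC type 2, and 208 kb at chr1:2368001-2576000 and chr1:195024001-195232000 in post-LBC type 2, followed there by 224 kb at chr1:5808001-6032000. LBC type 1 and LBC type 2 placed the 224 kb domain chr1:3600001-3824000 at identical coordinates. The shortest of post-LBC type 1 were 256 kb, at chr1:79952001-80208000, chr1:116368001-116624000 and chr1:142256001-142512000.

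To follow domain size along the chromosome, each domain was assigned by its midpoint to 1 of 20 windows of 10 Mb, numbered from the start, with 9 to 19 domains per window and map. In LBC type 1 the window means ran from 605 kb in 80 to 90 Mb to 896 kb in 10 to 20 Mb, a range of 1.48-fold. LBC type 2 ran from 538 kb in 50 to 60 Mb to 772 kb in 190 to 200 Mb, and post-LBC type 1 from 765 kb in 0 to 10 Mb to 1086 kb in 40 to 50 Mb. Post-LBC type 2 had the widest range, 1.84-fold, from 547 kb in 140 to 150 Mb to 1005 kb in 180 to 190 Mb. In no map were the means ordered along the chromosome. The SD over the 20 window means was 86.4, 57.1, 87.8 and 115 kb. The SD over single domains was 319, 193, 323 and 306 kb, so means of so few domains differ by that spread alone. Whether windows differ beyond it was not tested, here or in the window comparisons below.

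Stretches of long or short domains recurred in some maps only. The window of 20 to 30 Mb was among the 3 with the longest domains in both type 1 maps, with 883 kb at the LBC stage and 1061 kb after it. That of 10 to 20 Mb was among the top 3 in both LBC maps, with 896 and 696 kb, and was in the middle range of post-LBC type 1 with 879 kb. The windows of 170 to 180 and 180 to 190 Mb led in post-LBC type 2, with 897 and 1005 kb, the latter also being high in post-LBC type 1 at 1021 kb. Short domains recurred in 80 to 90 Mb, which was among the 3 lowest windows of LBC type 1 (605 kb), LBC type 2 (556 kb) and post-LBC type 1 (810 kb). The window of 50 to 60 Mb was low in both LBC maps, with 632 and 538 kb, and not in the post-LBC maps. Likewise 110 to 120 Mb was low in both type 1 maps, with 638 and 791 kb, and the first 10 Mb in both post-LBC maps, with 765 and 609 kb. The remaining low windows were 120 to 130 Mb in LBC type 2 with 553 kb, and 90 to 100 Mb in post-LBC type 2 with 617 kb. Over the 20 windows the means of the LBC maps had a Pearson's r of 0.65 (Spearman's rho 0.75), those of both type 1 maps 0.46 (0.50), and the 4 other pairs lay between -0.02 and 0.26. These values describe windows that share a chromosome, a domain caller and, within a map, nuclei.

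The difference between the types at the LBC stage ran along the entire chromosome. LBC type 2 had shorter domains on average than LBC type 1 in 20 of 20 windows, with ratios between 0.714 in 100 to 110 Mb and 0.969 in 190 to 200 Mb. Over the 110 windows of all chromosomes that held at least 3 domains in each map, the LBC type 2 mean was the lower one in 56.4%. At the post-LBC stage, type 2 was below type 1 in 18 of 20 windows of chromosome 1, against 83.6% of all windows. The exceptions were 30 to 40 Mb, where both means were within 1 grid step (890 and 893 kb), and 170 to 180 Mb, with 812 kb in type 1 and 897 kb in type 2.

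Domains were longer on average after the lampbrush stage in 19 of 20 windows in type 1, against 96.4% of all windows, and in 16 of 20 in type 2, against 80.9%. The size of the ratio differed between windows, and whether by more than the spread between domains gives was not tested. In type 1 it was lowest in 10 to 20 Mb at 0.981, where the means of 896 and 879 kb differed by little over 1 grid step, and highest in 50 to 60 Mb at 1.54. The 7 windows with the highest ratios were adjacent and spanned 30 to 100 Mb, with ratios between 1.27 and 1.54, while the other 13 had at most 1.24. This run was singled out after its values were seen. The other high ratios by rank were 1.45 in 40 to 50 Mb and 1.37 in 70 to 80 Mb, and the other low ones 1.06 in 100 to 110 Mb and 1.07 in 160 to 170 Mb.

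In type 2 the windows with high ratios were scattered. The highest were 1.61 in 50 to 60 Mb, 1.53 in 180 to 190 Mb and 1.49 in 30 to 40 Mb, and the lowest were 0.848 in 190 to 200 Mb, 0.867 in 140 to 150 Mb and 0.980 in 0 to 10 Mb. Both types had their highest ratio in 50 to 60 Mb, where the LBC and post-LBC means were 632 and 973 kb in type 1 and 538 and 867 kb in type 2. The numbers of domains in this window were 17 and 11 in type 1 and 19 and 12 in type 2. A ratio of at least 1.5 was reached in 1 of 20 windows in type 1, against 29.7% of the windows of all chromosomes, and in 2 of 20 in type 2, against 5.45%. In 5 of 20 windows the types lay on opposite sides of a ratio of 1, against 20.0% of all windows.

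**Figure D2:**
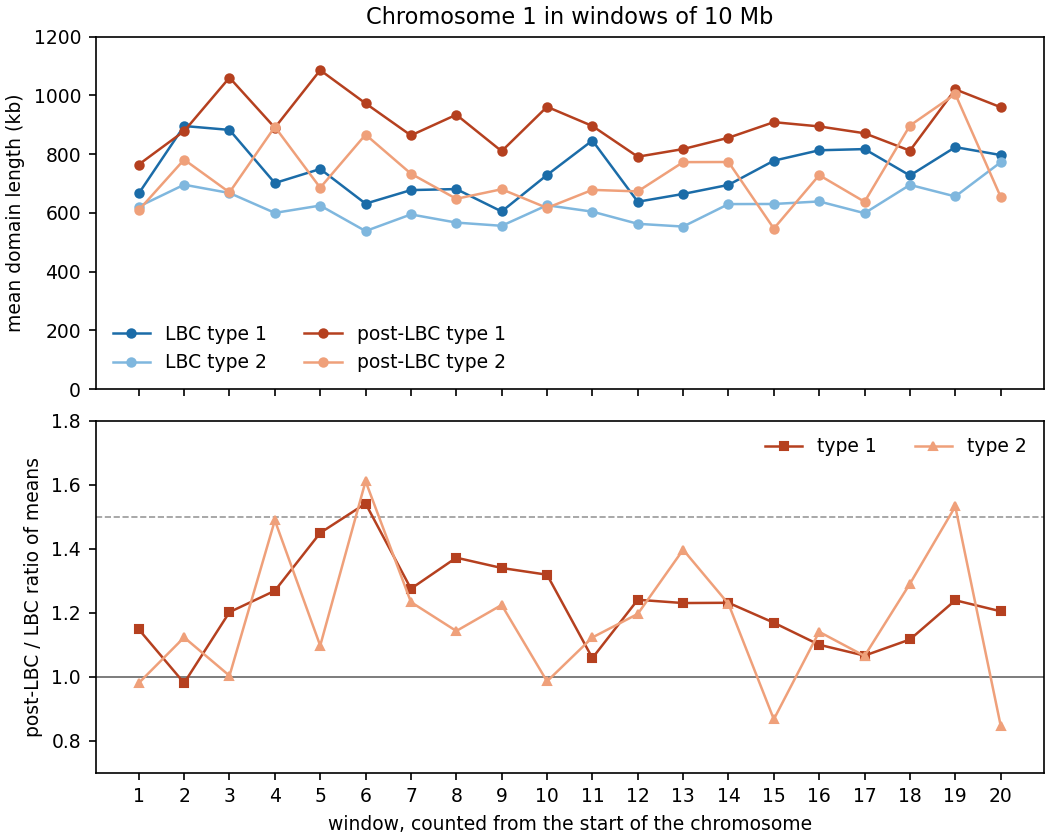
Upper plot: mean domain length in kb in each of the 20 windows of 10 Mb along chromosome 1, 1 line per map. Lower plot: ratio of the post-LBC to the LBC mean in each window for type 1 (squares) and type 2 (triangles), with lines at 1 and at 1.5 (dashed), where the type 1 ratios of windows 4 to 10 lie at 1.27 or above and both types peak in window 6.

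Between maps, about as many boundaries of chromosome 1 were shared as not. The maps have 298, 345, 240 and 307 boundaries on it (LBC type 1, LBC type 2, post-LBC type 1 and post-LBC type 2), and a boundary was counted as shared when the other map had one within 80 kb, that is 5 grid steps. In LBC type 1, 52.7% of boundaries (157 of 298, 95% Wilson interval 47.0 to 58.3%) had a counterpart in post-LBC type 1, against 54.9% over all chromosomes. In the other direction 65.4% of the post-LBC type 1 boundaries (157 of 240, 59.2 to 71.1%) had one in LBC type 1, against 75.3%, and 25 of the 27 other chromosomes had a higher share. Of the post-LBC type 1 boundaries of chromosome 1, 68 were at the identical grid position in LBC type 1 and 42 were 1 step away. Most boundaries of post-LBC type 1 thus lay near one of LBC type 1, with a share below that of all chromosomes counted together.

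In type 2 the shares between stages were lower. There 43.2% of LBC boundaries (149 of 345, 38.1 to 48.5%) had a post-LBC counterpart, against 39.7% over all chromosomes, and 48.9% of post-LBC boundaries (150 of 307, 43.3 to 54.4%) had an LBC counterpart, against 44.5%. Here chromosome 1 was above the value of all chromosomes in both directions, and the background lay inside both intervals. Identical positions were fewer as well, 46 of the 307. Counts of identical positions were not set against all chromosomes in either type.

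Between the types at one stage, 50.7% of LBC type 1 boundaries recurred in LBC type 2 (background 53.0%) and 44.1% of LBC type 2 boundaries in LBC type 1 (38.9 to 49.3%, background 52.7%). After the lampbrush stage, 55.4% of type 1 boundaries recurred in type 2 (background 59.9%) and 43.6% of type 2 boundaries in type 1 (38.2 to 49.2%, background 49.1%). More LBC type 2 boundaries of chromosome 1 were thus without a partner in LBC type 1 than with one, and of the other 27 chromosomes 25 had a higher share. Chromosome 1 had 345 boundaries in LBC type 2 against 298 in LBC type 1. Its ratio of domain numbers, 1.19, was above that of every other chromosome. How far this bears on the share in this direction was not tested. Across both stage and type, the share was 49.3% from LBC type 1 to post-LBC type 2 (background 47.6%) and 46.9% in return (53.3%). It was 37.4% from LBC type 2 to post-LBC type 1 (38.8%), the lowest of the 12 directed pairs, and 53.8% in return (53.7%).

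These shares should be read against how much of the chromosome lies near a boundary. The zones within 80 kb of the boundaries of a map covered 22.9% of chromosome 1 for LBC type 1, 26.5% for LBC type 2, 18.6% for post-LBC type 1 and 23.9% for post-LBC type 2. All 12 shares were above the covered part of the map they were compared with. The covered part was taken for chromosome 1 only, so comparisons with other chromosomes do not account for how densely boundaries lie there. Boundaries of different maps differ in number, which sets how high a share can be in each direction.

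**Figure D3:**
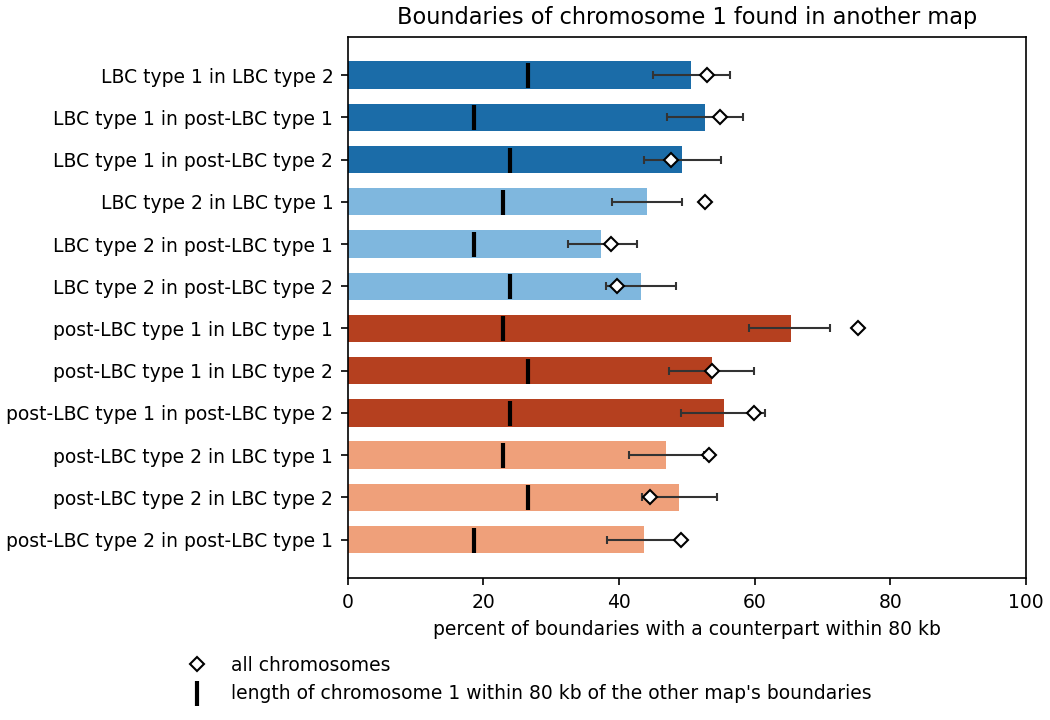
Percent of the boundaries of chromosome 1 in the first named map that have a counterpart within 80 kb in the second (bars, coloured by the first map, with 95% Wilson intervals), for 12 directed pairs. Diamonds give the same share over all chromosomes and vertical ticks the percent of the length of chromosome 1 within 80 kb of a boundary of the second map, which is below every bar.

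Taking the LBC type 1 boundaries as reference, 70 of 298 (23.5%, 19.0 to 28.6%) were found in all 4 maps, against 23.4% over all chromosomes, and 62 (20.8%) in no other map, against 18.7%. Another 87 were in 2 maps and 79 in 3. Boundaries that flanked a gap were found in all 4 maps more often than the others. Of the 68 LBC type 1 boundaries at gaps 36 (52.9%, 41.2 to 64.3%) were in all 4 maps, whereas of the 228 between adjoining domains 32 were (14.0%, 10.1 to 19.1%). The 68 are the paired ends of 34 gaps, and both ends of a short gap can match the same boundary of another map. Those at 91808000 and 91824000, for example, both had 91808000 as nearest boundary in both post-LBC maps. The interval treats such ends as independent, so it is too narrow. Over all chromosomes the same shares were 47.4% at gaps and 16.3% between adjoining domains. With post-LBC type 1 as reference, these shares were 34 of 48 and 35 of 190. At 18 positions the 4 maps had a boundary in the identical grid step, and of these 16 flanked a gap and 1 was the end of the last domain. The remaining one, at 78128000, was the single border between adjoining domains that had the same position in every map. The identical positions and the shares with post-LBC type 1 as reference were not set against all chromosomes.

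Boundaries common to all 4 maps were unevenly spaced, in part by the way they were counted. Both ends of a gap count, so gaps are among the short intervals, down to 16 kb, and lower the median. The spacing was not set against all chromosomes. The median distance between neighbouring ones was 1840 kb, and 16 of the 69 intervals were longer than 5 Mb and together covered 115 Mb. The longest such stretch ran from 91824000 to 103280000 (11.5 Mb) and held 15, 19, 12 and 18 domains in LBC type 1, LBC type 2, post-LBC type 1 and post-LBC type 2. Of the 14 LBC type 1 boundaries inside it, 4 were in no other map, 4 in 1 further map and 6 in 2 further maps. The next were 36752000 to 47152000 (10.4 Mb), 185344000 to 195232000 (9.89 Mb), 171184000 to 179712000 (8.53 Mb) and 21776000 to 30032000 (8.26 Mb). By window, the share of LBC type 1 boundaries in all 4 maps was between 9.09% (1 of 11 in 20 to 30 Mb) and 38.9% (7 of 18 in 70 to 80 Mb), and the first and the last window were high, with 6 of 16 and 5 of 14. In the first window all of these but the border at 7968000 flanked a gap or were the outermost end. In the last window all of them did so.

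**Figure D4:**
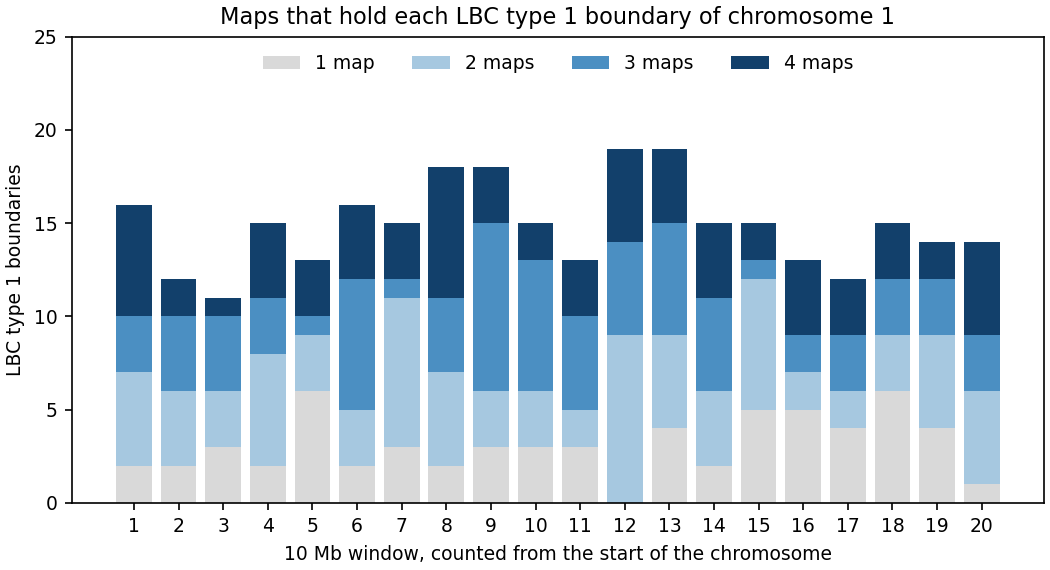
Number of LBC type 1 boundaries (y axis) in each 10 Mb window of chromosome 1 (x axis), stacked by how many of the 4 maps have a boundary within 80 kb (1 map means LBC type 1 alone). Every window has at least 1 boundary found in 4 maps, with the most in window 8 (7), and window 12 has none that is in LBC type 1 alone.

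Whole domains recurred less often than single boundaries, as both ends have to match. In type 1, 62 of the 263 LBC domains (23.6%, 18.8 to 29.1%) had both ends within 80 kb of the ends of 1 post-LBC domain, against 24.7% over all chromosomes. In type 2 these were 34 of 313 (10.9%, 7.88 to 14.8%), against 10.1%. The recurring domains had a median length of 744 kb in type 1 and 608 kb in type 2, and the other LBC domains 672 and 592 kb. In all 4 maps 4 of the 263 LBC type 1 domains recurred (1.52%), against 2.59% over all chromosomes. They were chr1:688001-1104000, which is the first domain and ends at the longest gap, chr1:57264001-57888000, chr1:79952001-80208000, which lies between 2 gaps, and chr1:170384001-171184000. The domain at 79952001 measured 256 kb in each map, and the one at 170384001 between 800 and 880 kb.

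LBC boundaries without a post-LBC counterpart lay, with few exceptions, inside a post-LBC domain, as the domains cover nearly the whole span, and a boundary that is merely shifted by more than 80 kb counts there too. In type 1, 157 of the 298 LBC boundaries were at a post-LBC boundary, 138 (46.3%, 40.7 to 52.0%) were inside a post-LBC domain and 3 were covered by none, and the share inside was 44.6% over all chromosomes. With the manually refined list 35 LBC boundaries were inside a post-LBC domain, and 78.9% were at a post-LBC boundary. That list has 132 domains on chromosome 1 and so fewer boundaries, and the counts 138 and 35 are out of different totals. No share over all chromosomes was taken for it. In type 2, 193 of 345 (55.9%, 50.7 to 61.1%) were inside a domain, against 59.1%. The reverse was also found, since of the post-LBC boundaries 83 of 240 in type 1 (34.6%, 28.9 to 40.8%) lay inside an LBC domain, against 24.0% over all chromosomes. In type 2 these were 155 of 307 (50.5%, 44.9 to 56.0%), against 55.1%.

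Post-LBC domains that held several LBC domains were the longer ones, as a longer stretch takes in more of them by its length alone. By the midpoints of LBC domains, 150 of the 215 post-LBC type 1 domains held 1 of them, 52 held 2, 3 held 3 and 10 held none. In type 2, 160 of 266 held 1, 65 held 2, 7 held 3 and 34 held none. The median length was 1152 kb for those with 2 or more in type 1 against 760 kb for those with 1, and 1072 against 608 kb in type 2. Both outer ends within 80 kb of LBC boundaries, with at least 1 LBC border inside, were seen for 28 post-LBC domains in type 1 (13.0%) and 15 in type 2 (5.64%). In the reverse direction, LBC domains with both ends shared and a post-LBC border inside numbered 0 of 263 in type 1 and 13 of 313 in type 2. LBC domains that held 2 or more post-LBC domains numbered 8 in type 1 and 27 in type 2. Among domains with both ends shared, type 2 thus had about as many divided as joined, 13 and 15. By midpoints, 55 post-LBC domains in type 1 and 72 in type 2 held 2 or more LBC domains, more than the 8 and 27 in reverse. The counts of this paragraph were not set against all chromosomes, so they do not show whether chromosome 1 differs.

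The longest post-LBC type 1 domain with 3 LBC domains was chr1:57888001-59312000, the 1424 kb post-LBC type 1 domain in the window with the highest ratio. LBC type 1 had 3 domains there, chr1:57888001-58272000, chr1:58272001-58848000 and chr1:58848001-59296000, of 384, 576 and 448 kb. LBC type 2 began at the same position with domains of 544, 416 and 224 kb and went on with chr1:59072001-59904000. Post-LBC type 2 had 1 domain of 1440 kb, chr1:57872001-59312000, whose ends were within 16 kb of those of post-LBC type 1. The neighbouring domain chr1:57264001-57888000 on its left is 1 of the 4 that recurred in all maps. In both types, several LBC domains thus lay within the span of 1 post-LBC domain beside a domain whose ends differed by at most 80 kb between maps. All 10 post-LBC type 1 boundaries of this window had an LBC type 1 counterpart.

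The other type 1 domains that held 3 LBC domains were chr1:93664001-95056000, with LBC domains of 304, 576 and 528 kb and both ends shared, and chr1:60336001-61536000, whose right end lay inside the third LBC domain, which ended at 61648000. The next by length, chr1:189888001-191360000 and chr1:129488001-130912000, held the midpoints of 2 LBC domains with neither end shared. In type 2, 5 of the 7 domains with 3 LBC domains are named by length. They were chr1:181680001-183232000, chr1:57872001-59312000, chr1:177536001-178976000, chr1:86016001-87264000 and chr1:126048001-127280000. Both ends were shared in chr1:86016001-87264000, over LBC type 2 domains of 432, 464 and 384 kb.

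Gaps took up a small part of chromosome 1, and many of them recurred between maps. Chromosome 1 had 34 gaps in LBC type 1, 31 in LBC type 2, 24 in post-LBC type 1 and 40 in post-LBC type 2, with a summed length of 6224, 5824, 5888 and 8704 kb. This was 3.13%, 2.93%, 2.96% and 4.38% of the span from the first to the last domain. The median gap was 96, 80, 112 and 176 kb long, and 9, 8, 9 and 11 gaps reached 200 kb. Chromosome 1 held 25%, 27.0%, 25.5% and 22.1% of the gaps of all chromosomes, somewhat above its part of the summed domain length. A gap under that length could not have held a domain of the lists.

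In all 4 maps the longest gap was chr1:1104001-2368000, with 1264 kb and identical ends. It lies behind the first domain, which recurred in every map. The second in 3 of the maps was a gap near the other end of the chromosome, chr1:196880001-197648000 in LBC type 1 (768 kb), which the maps placed with 688 to 768 kb and with 640 kb in common, and which in post-LBC type 2 was as long (752 kb) as the gap chr1:116128001-116880000. Further long gaps were common to the maps at chr1:84976001-85456000 (480 kb), chr1:195232001-195616000 (384 kb) and chr1:76512001-76864000 (352 kb). Other gaps differed in length between maps. The gap chr1:89488001-89904000 was 416 kb in LBC type 2, 240 kb in post-LBC type 1, 208 kb in post-LBC type 2 and 64 kb in LBC type 1. Likewise the 752 kb gap of post-LBC type 2 at 116128001 was split in the other maps by the 256 kb domain chr1:116368001-116624000 of post-LBC type 1 and its counterparts.

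A stretch without domain in all 4 maps was found 20 times. These common gaps summed to 4688 kb, which is 44.9% of the 10448 kb that were in a gap of any map, while 4288 kb were in a gap of 1 map only. Besides the longest one, 4 had identical ends in all maps, at chr1:74144001-74224000, chr1:118096001-118128000, chr1:142512001-142768000 and chr1:185296001-185344000. The others differed in at least 1 end. The number and summed length of common gaps were not set against all chromosomes. Gaps that overlapped no gap of another map numbered 4 of 34, 3 of 31, 0 of 24 and 17 of 40 in the order above, so that the map of 1 nucleus held most of them. Over all chromosomes such gaps were 19.9%, 10.4%, 3.19% and 54.1% of the gaps, where chromosome 1 had 11.8%, 9.68%, 0% and 42.5%.

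Common gaps were absent from a long run in the first part of the chromosome. Between chr1:3824001-3904000 and chr1:74144001-74224000, over 70.2 Mb, none was found, and the maps had 3, 5, 1 and 9 gaps of their own there, with 192, 208, 112 and 1312 kb in all. LBC type 1 and post-LBC type 1 had no gap between 20 and 70 Mb. Within this run 18 of 96 LBC type 1 boundaries (18.8%) were found in all 4 maps, against 50 of 200 (25%) on the rest of the chromosome without its outermost ends. None of those in the run was at an identical position. As most identical positions flank a gap, choosing a run without common gaps largely fixes this in advance. Of its borders between adjoining domains 17 of 90 were in all 4 maps (18.9%), and of those on the rest of the chromosome 15 of 138 (10.9%). Over all chromosomes the share of such borders was 16.3%. The run was chosen as the longest one between common gaps, after the gaps were seen.

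**Figure D5:**
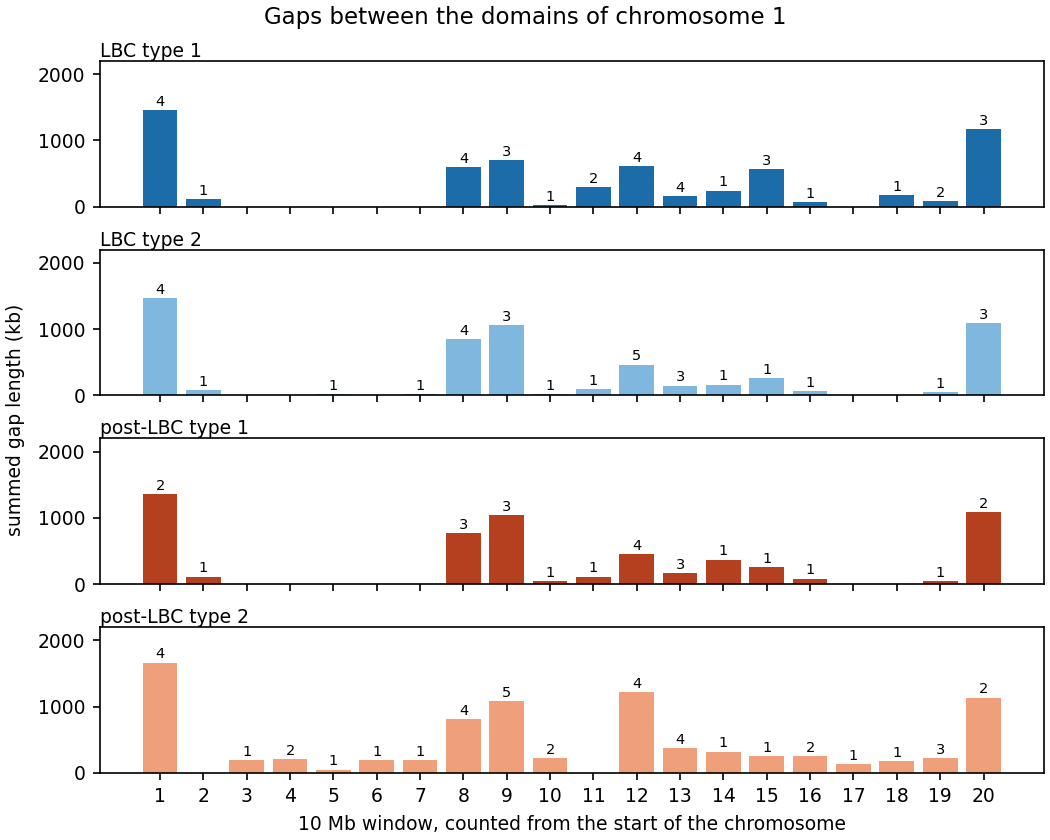
Summed length in kb of the gaps between domains (y axis) in each 10 Mb window of chromosome 1 (x axis), 1 panel per map, with the number of gaps above each bar. Windows 1, 8, 9, 12 and 20 hold long gaps in all maps, whereas windows 3 to 7 hold none in both type 1 maps and 1 or 2 per window in post-LBC type 2.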

How the data were processed

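Hi-C contacts of 25 single chicken oocyte nuclei were pooled by the authors into 4 maps. The deposited values are domain coordinates in bp on ASM2420605v2, with no counts, scores or depth. Contact numbers per nucleus are given by the study and were not used here, and the depth behind a single boundary is unknown. Per the methods, the authors used cutadapt 4.1 for trimming and juicer 1.5.6 for alignment, discarded pairs of a mapping quality under 30, built unbalanced maps in cooler 0.10.2 and called domains with lavaburst 0.2.0. Its size parameter was chosen for a target mean size of domains and scaled by chromosome size. The methods state it for single oocytes, and how it was set for the pooled maps is not given in the sources used here. The 4 automatic lists lie on a 16 kb grid. Of the manually refined list of LBC type 1, 557 of 873 domains over all chromosomes lie on it. That list also has 83 overlaps between neighbouring domains.

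Python 3.11.15, numpy 2.4.6 and matplotlib 3.10.9 were used. Domains were assigned to 10 Mb windows by their midpoints, windows of all chromosomes needed at least 3 domains, and boundaries were matched within 80 kb, with 95% Wilson intervals. Touching domain ends were 1 boundary, and both ends of a gap were boundaries. The counting was tested on simulated lists. Named in the text are the 3 longest and shortest domains and windows of each map, the 3 highest and lowest ratio windows of each type, the 5 longest gaps and stretches, the 5 post-LBC domains with most LBC domains, and what all 4 maps share. Where domains tied in length, the first along the chromosome were taken. The members and these rules were chosen with earlier results of the data known. Alternatives were other tolerances, windows, folds and gap minimums, means, and the manually refined list of LBC type 1. No sequence or gene annotation of the assembly was used here.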

Additional observations from a re-analysis of the deposited data

Results flagged for a closer look

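In 5 of 20 windows of chromosome 1 the ratio of the post-LBC to the LBC mean domain length was above 1 in one type and below 1 in the other, which drew a closer look. Over all chromosomes this was so in 20.0% of windows, so the number of such windows on chromosome 1 was not unusual. The difference was not tested, since each map is 1 pooled list. In 0 to 10 Mb it was 1.15 in type 1 and 0.980 in type 2, and in 90 to 100 Mb it was 1.32 and 0.986. In 140 to 150 Mb it was 1.17 and 0.867, where post-LBC type 2 had 18 domains with a mean of 547 kb. In 190 to 200 Mb it was 1.20 and 0.848. The opposite case was 10 to 20 Mb, with 0.981 in type 1 and 1.12 in type 2. By medians, lengths rose there in both types, from 752 to 960 kb in type 1 and from 664 to 848 kb in type 2. In 0 to 10 Mb medians also rose in both, from 528 to 616 kb and from 544 to 592 kb. The other flagged windows had opposite directions by medians too. In 3 of the 5 windows the means of one type were about 1 grid step of 16 kb apart or closer.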

How the results depend on the processing

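The direction of the stage comparison was kept with means in place of medians, and 1 value reversed. With the manually refined list of LBC type 1, whose median on chromosome 1 was 1075 kb, the post-LBC over LBC ratio of medians in type 1 was 0.863 in place of 1.32. With that list 78.9% of LBC type 1 boundaries recurred in post-LBC type 1, 50.4% of post-LBC type 1 boundaries in LBC type 1, and 35 LBC boundaries lay inside a post-LBC domain. It has fewer boundaries than the automatic list. Means were 733, 617, 898 and 715 kb (LBC type 1, LBC type 2, post-LBC type 1 and post-LBC type 2), and their ratio in type 1 was 1.23. The highest over the lowest window mean was 2.05, 1.79, 2.14 and 2.25 in 5 Mb windows and 1.22, 1.22, 1.24 and 1.30 in 20 Mb windows. In LBC type 1 it was 1.67 with windows from 5 Mb, and with domains weighted by bases it was 1.63 there and 1.31 in post-LBC type 1. The windows past the fold numbered 7 in type 1 and 5 in type 2 at a fold midway between 1 and 1.5, and 0 in both at a fold of 2. In type 1 and type 2 there were 6 and 8 of them in 5 Mb windows, which are more numerous, and 1 and 0 in 20 Mb windows, which are fewer. With windows from 5 Mb there were 3 and 3, and with weighted domains 0 and 3. No share over all chromosomes was taken at these settings.

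At a tolerance of 16, 32 and 160 kb, the share of LBC boundaries with a post-LBC counterpart was 37.2%, 43.3% and 63.8% in type 1 and 22.0%, 27.0% and 57.1% in type 2. In the other direction it was 45.8%, 53.8% and 77.9% in type 1 and 24.8%, 30.6% and 66.4% in type 2. LBC type 1 boundaries in all 4 maps numbered 31, 43 and 107. Without boundaries at gaps, 37.8% of LBC type 2 boundaries recurred in post-LBC type 2, 42.3% in return, and 58.9% of post-LBC type 1 boundaries recurred in LBC type 1. In the 8 other directed pairs leaving out gap boundaries gave 29.7% to 50%. Gaps of at least 80 kb numbered 21 in LBC type 1 and 18 in LBC type 2, and those of at least 200 kb 9, 8, 9 and 11. Leaving out the outermost domains or boundaries and matching boundaries one to one moved no result beyond its interval or 1 grid step. The causes of these differences were not tested beyond what each setting fixes by construction. No paired analysis was possible because the nuclei of a map are pooled into 1 list, which also leaves no replicate to leave out. The lists hold no depth, so how many boundaries depth alone would move cannot be given, above all for post-LBC type 2 with its 1 nucleus.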
